A study of Mus musculus with 6 samples.

Results

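The genes described here are the gene segments of the T cell receptor: every gene that the deposited count table assigns to a T cell receptor class (variable V, diversity D, joining J or constant C segment, pseudogenes included). They number 151 of the 18828 genes of the table. The alpha chain has 48 V, 58 J and 1 C gene among them, the beta chain 14 V, 2 D, 14 J and 2 C genes, the gamma chain 3 V, 1 J and 3 C genes, and the delta chain 2 V, 2 J and 1 C gene. The class labels fit their positions: 112 lie on chromosome 14 (the alpha and delta loci), 32 on chromosome 6 (beta) and 7 on chromosome 13 (gamma). Of the 151, 11 are annotated as pseudogenes.

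T cells isolated from the spleen of FVB mice, labelled WT, were cultured with beads carrying antibodies against CD3 and CD28 and were given either 50 µM urolithin A (UA) or DMSO at the same time for 48 h. UA is a metabolite that the gut flora forms from ellagitannins of food plants, and DMSO is a solvent. Stimulation through the receptor complex is common to both groups. Each group has 3 bulk RNA libraries with the letters a to c. Whether these come from separate mice or separate cultures is not in the labels, and the p-values then cover the spread between these libraries alone, which may be technical.

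A T cell receptor is a pair of chains, alpha with beta or gamma with delta. Each chain gene is assembled in the developing T cell by cutting and joining 1 V, (for beta and delta) D, and J segment, and the joined exon is then spliced to a constant region. The constant region transcript therefore reports the level of the chain as a whole, and the V and J counts report which segments occur in the RNA of the population. Whether a count comes from a joined chain was not tested. The J pseudogene Trbj2-6, for 1, also had counts, at 1.35 CPM with DMSO and 1.16 with UA. In a mature T cell the choice of joined segments is fixed in the DNA. In a mixed population the V counts therefore depend on which cells are present and on how much receptor RNA each makes. In bulk RNA, fewer cells of a type and less RNA per cell cannot be told apart.

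The short sequences below, 5′ to 3′, are reference sequences of GENCODE M21 (GRCm38, from the C57BL/6 strain, not FVB) and show the segments as that annotation gives them. They were matched by gene ID, and the annotation behind the deposited counts may differ. The constant genes Trbc1 and Trbc2 come first, because both rose with UA and because reads can tell them apart only in places: of 518 coding bases, 495 (95.6%) are identical. Capitals mark the 11 bases that differ in the last 60 coding bases, 459 to 518, which code for the membrane end of the chain.
Trbc1: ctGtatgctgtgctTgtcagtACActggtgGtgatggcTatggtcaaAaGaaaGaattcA
Trbc2: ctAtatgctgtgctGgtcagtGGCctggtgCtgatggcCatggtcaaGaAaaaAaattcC

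The last 60 bases of the V segments that the results turn on follow: the 3 beta V genes that rose (Trbv2, Trbv3, Trbv31), the most abundant beta V gene, which was not called (Trbv1), the pseudogene Trbv24, and the alpha V gene that rose (Trav14-1). Capitals mark TGNGC, searched on the coding strand in the last 30 bases, which holds the cysteine codon at the start of the junction in most V genes.
Trbv1: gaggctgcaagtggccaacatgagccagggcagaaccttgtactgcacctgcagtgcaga
Trbv2: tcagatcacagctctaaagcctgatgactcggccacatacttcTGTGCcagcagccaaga
Trbv3: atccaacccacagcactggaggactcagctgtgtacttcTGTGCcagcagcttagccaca
Trbv24: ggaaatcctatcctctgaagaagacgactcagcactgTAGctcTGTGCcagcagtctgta
Trbv31: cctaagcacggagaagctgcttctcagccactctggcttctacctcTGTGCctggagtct
Trav14-1: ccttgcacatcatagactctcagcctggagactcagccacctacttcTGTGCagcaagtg

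TGNGC occurred in 10 of 13 beta V genes, 41 of 47 alpha V genes, 1 of 2 delta V genes and 2 of 3 gamma V genes, pseudogenes left out. Trbv1 has no match in this window. In Trbv24 a second run of capitals marks the stop codon TAG, which starts 6 bases, that is 2 codons, before TGTGC.

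Between the V and C parts of the beta chain stand the D and J segments. The J segment that rose, Trbj2-4, is shown with the most abundant one, Trbj2-7, and with Trbj1-6. Capitals mark TTNGGNNNNGG on the coding strand, which codes for the phenylalanine-glycine motif that most J segments share.
Trbd1: gggacagggggc
Trbd2: gggactgggggggc
Trbj2-4: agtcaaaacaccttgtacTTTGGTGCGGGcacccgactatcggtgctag
Trbj2-7: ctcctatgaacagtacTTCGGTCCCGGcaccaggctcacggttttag
Trbj1-6: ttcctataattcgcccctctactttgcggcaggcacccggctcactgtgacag

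The motif was found in 11 of 13 Trbj genes, in 44 of 50 Traj genes, in 2 of 2 Trdj genes, and in 2 of 8 Traj pseudogenes. It was not found in Trbj1-6, where these letters are not in the window, nor in the pseudogene Trbj2-6.

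Libraries held 12738059 to 19081219 counts, of which receptor genes made up 0.136% to 0.218% (23521 to 36941 counts). The ribosomal RNA gene Rn18s took 17.6% of counts in DMSO library b and 3.97% in UA library a, against at most 0.887% in the others. Levels are therefore given as CPM, a library's counts scaled to a total of 1000000, after scaling by the trimmed mean of M values. Totals and scaling were computed over the genes that passed the count filter. The count filter was passed by 14444 genes. Of these, 33.7% were called at an adjusted p under 0.05 (limma voom, Benjamini-Hochberg over all 14444), 17.7% higher and 16.0% lower with UA. CPM of the groups did not overlap in 46.8%.

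Of 91 receptor genes tested, 7 were higher with UA (Trbc1, Trbc2, Trbv2, Trbv3, Trbv31, Trbj2-4 and Trav14-1) and 1 was lower (Trgc2), together 8.79%. In 10 tested genes all UA libraries lay above all DMSO libraries, and in 1 below. The median log2 fold change was 0.12, beside 0.01 over all genes tested, and 55 of 91 were positive. The remaining 60 members were not tested: their total over 6 libraries was 2 to 53 counts. Many members had low counts. A mean count under 50 was seen in 64 of the 91, and none of those was called. Over all genes 17.6% of those under 50 and 39.3% of those at 50 or more were called, and of the 27 receptor genes at 50 or more, 8 were. Without DMSO library b and UA library a, which stood apart in Rn18s, 6 receptor genes were higher and 1 lower, all of them among the 8 named: Trbc1 (log2 fold change 0.38), Trbc2 (0.36), Trbv2 (0.62), Trbv3 (0.52), Trbv31 (0.59), Trav14-1 (0.79) and Trgc2 (-0.83).

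**Figure D1:**
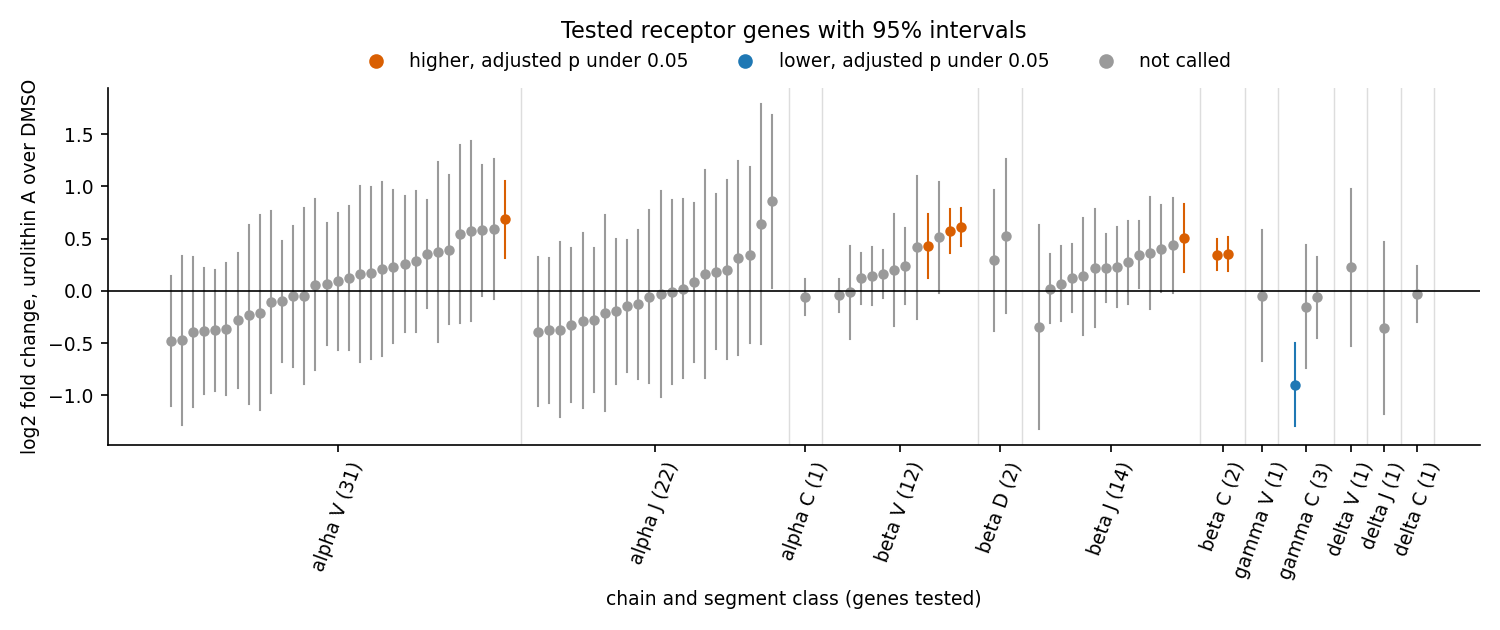
Log2 fold change (UA over DMSO) of the 91 tested receptor genes, sorted within each chain and segment class, with vertical lines for the 95% interval from limma voom. Both beta C genes, 3 beta V genes, 1 beta J gene and 1 alpha V gene lie above 0 with an adjusted p under 0.05, 1 gamma C gene lies below, and the intervals of most alpha V and alpha J genes are wide.

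The constant regions of the beta chain rose with UA, while that of the alpha chain was not called. Trbc2 is the downstream of the pair of beta constant genes, and either can complete a beta chain. Trbc2 stood at 609.5, 580.1 and 606.6 CPM with DMSO (libraries a to c, as in all values per library that follow) and at 713.1, 768.0 and 807.5 CPM with UA. Every UA library was above every DMSO library. Its mean went from 599 ± 16.2 to 763 ± 47.4 CPM (SD, n = 3 per group), a log2 fold change of 0.35 ± 0.07 (SE) with a limma voom adjusted p of 0.00123.

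Trbc1, the upstream gene, stood at 291.6, 272.9 and 289.3 CPM with DMSO and at 326.1, 376.8 and 389.3 CPM with UA, again without overlap. The log2 fold change was 0.35 ± 0.08 (SE, limma voom adjusted p = 0.00280). The pair moved by the same amount: the count ratio of Trbc2 to Trbc1 was 2.10 ± 0.0190 with DMSO and 2.10 ± 0.0777 with UA (SD, n = 3; exact permutation p = 1.0). Of the 50-base words of their transcripts, 59.5% in Trbc1 and 56.0% in Trbc2 occur in no other receptor transcript, and all the shared ones are shared between the pair, so the split between them is uncertain where the counting could not place a read.

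Trac encodes the only alpha constant region. It stood at 268.7, 282.1 and 279.2 CPM with DMSO and at 241.2, 298.1 and 260.8 CPM with UA, so that the DMSO values lie inside the range of the UA values. The log2 fold change was -0.06 ± 0.08 (SE, limma voom adjusted p = 0.610), with a 95% interval from -0.23 to 0.11. The ratio of Trbc2 to Trac counts, which does not depend on the scaling between libraries, was 2.268, 2.056 and 2.173 with DMSO and 2.957, 2.577 and 3.096 with UA. The groups did not overlap, and the ratio of the means was 1.33. The exact two-sided permutation test gave p = 0.1, the smallest that 3 libraries against 3 allow (0.11 after Benjamini-Hochberg adjustment over the 11 ratios compared). Most of the 11 ratios set a called gene against one not called in the same libraries. Their separation is therefore not independent of the calls, and the adjustment does not cover that choice.

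Per kilobase of transcript the DMSO level was 865 CPM for Trbc2, 380.0 for Trbc1 and 296 for Trac. The constant genes of the gamma and delta chains were far lower: per kilobase, Trgc2 was at 5.34, Trgc4 at 4.26, Trdc at 3.69 and Trgc1 at 1.83 CPM.

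**Figure D2:**
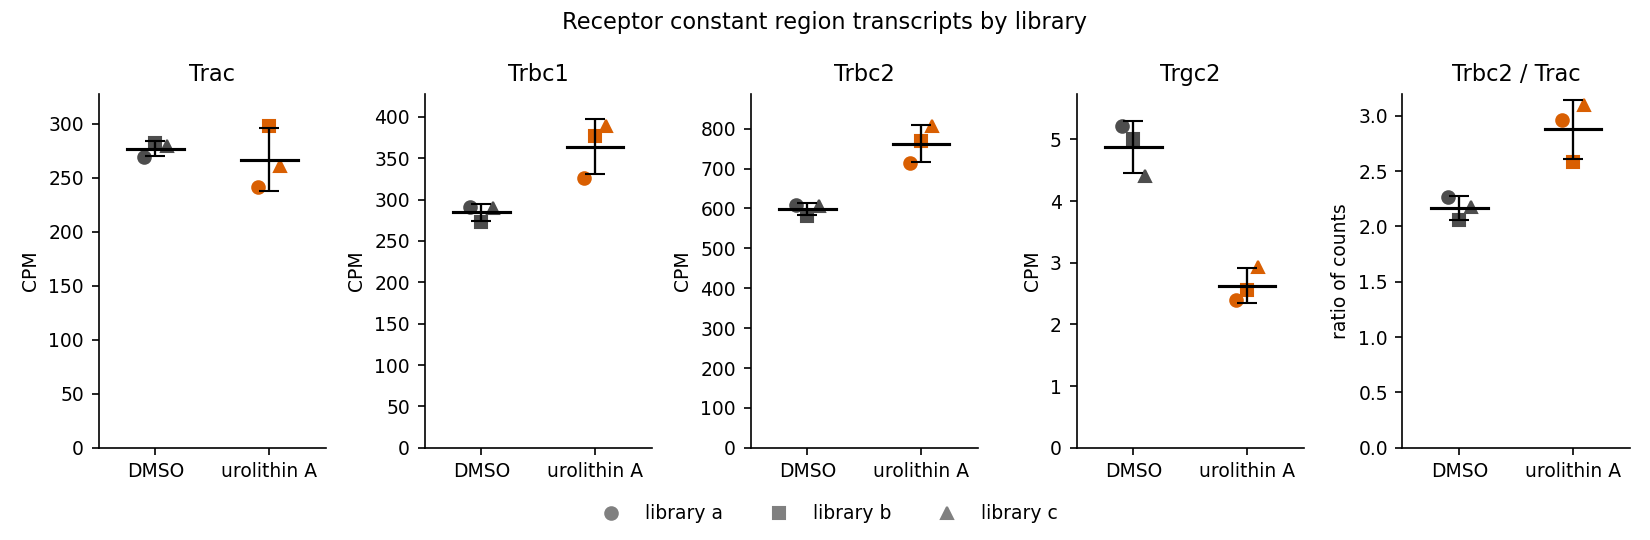
CPM of Trac, Trbc1, Trbc2 and Trgc2 and the count ratio of Trbc2 to Trac, by library (symbols), with the mean (line) and SD (bars, n = 3) of each group. The UA libraries lie above the DMSO libraries for Trbc1, Trbc2 and the ratio and below them for Trgc2, and the groups overlap for Trac.

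Among the V segments of the beta chain, Trbv1 was the most abundant in every library. Mouse V beta regions are also known by older numbers, given here in brackets. Per kilobase the DMSO order was Trbv1 (Vβ2) at 231 CPM, Trbv24 (Vβ17) at 137, Trbv3 (Vβ16) at 105, Trbv19 (Vβ6) at 77.2, Trbv29 (Vβ7) at 73.0, Trbv2 (Vβ4) at 58.7, Trbv31 (Vβ14) at 50.7 and Trbv26 (Vβ3) at 41.7. The other 6 genes were below 14 CPM per kilobase. Trbv1 stood apart in each library, whereas Trbv19 and Trbv29, which are neighbours in the order, differ by less than the SD of Trbv29 between libraries.

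The list of beta V genes ends at 14, and position along the locus shows where they lie. In the deposited coordinates, 5 genes run from Trbv1 to Trbv5, a stretch of 115571 bases without a listed V gene follows, and 9 genes run from Trbv19 to Trbv31. Longer stretches without a listed V gene lie between Trbv1 and Trbv2 and between Trbv30 and Trbv31, where the D, J and C genes lie in the latter. FVB mice are known, as background, to carry a deletion in the beta locus that removes the segments for Vβ5, Vβ8, Vβ9, Vβ11, Vβ12 and Vβ13. The genes that the reference strain has between Trbv5 and Trbv19 (Trbv12-1 to Trbv17) are not among the 14 listed. Why they are not listed was not tested, so the strain label was not checked with them.

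Of the 12 tested beta V genes, 3 rose with UA, none was called lower and 10 had a positive fold change. The median log2 fold change was 0.22. The called share of the 12 was below the 33.7% of all genes tested. Trbv2 stood at 32.26, 31.51 and 34.85 CPM with DMSO and at 47.42, 53.74 and 50.11 CPM with UA. The UA libraries were all above the DMSO libraries, with a log2 fold change of 0.61 ± 0.09 (SE, limma voom adjusted p = 8.5e-05), the smallest adjusted p among the members.

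Trbv31 is the V segment of the beta locus that lies beyond the constant genes, on the opposite strand, 9338 bases from the end of Trbc2, and joins by inversion. It stood at 22.34, 20.03 and 21.22 CPM with DMSO and at 28.94, 31.91 and 34.59 CPM with UA, also without overlap. The log2 fold change was 0.57 ± 0.10 (SE, limma voom adjusted p = 4.6e-04).

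Trbv3, which starts 294 bases after Trbv2 ends, stood at 41.66, 48.76 and 52.46 CPM with DMSO and at 56.47, 80.78 and 56.59 CPM with UA. UA library b was far above the rest, and the log2 fold change of 0.43 ± 0.14 (SE, limma voom adjusted p = 0.0331) became 0.25 without it (adjusted p = 0.0217). The call was lost without DMSO library a (adjusted p = 0.133) or DMSO library b (adjusted p = 0.0775). The count ratio of Trbv3 to Trbv1 was 0.496 ± 0.0741 with DMSO and 0.692 ± 0.156 with UA (SD, n = 3).

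Trbv1 itself was not called. It stood at 99.03, 97.94 and 92.25 CPM with DMSO and at 89.42, 92.96 and 98.34 CPM with UA, overlapping ranges with a log2 fold change of -0.04 ± 0.07 (SE, limma voom adjusted p = 0.677, 95% interval -0.20 to 0.11). The ratio of Trbv2 to Trbv1 counts was 0.3257, 0.3217 and 0.3778 with DMSO and 0.5303, 0.5780 and 0.5096 with UA, 1.58 times as high on average without overlap. For Trbv31 to Trbv1 the ratio went from 0.220 ± 0.0136 to 0.340 ± 0.0144 (SD, n = 3), also without overlap, with an exact permutation p = 0.1 for each, the smallest possible.

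Trbv24 is a pseudogene in the reference strain because of the stop codon shown above, and a functional allele is known from SJL mice. In these FVB libraries it was among the 5 most counted beta V genes, at 44.32, 47.09 and 51.03 CPM with DMSO and 47.94, 66.21 and 44.46 CPM with UA. The ranges overlap and the gene was not called (log2 fold change 0.14 ± 0.13, limma voom adjusted p = 0.434). The counts do not show which allele the reads carried.

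Trbv19 went from 43.7 ± 1.22 to 49.0 ± 8.41 CPM (SD, n = 3) and was not called (limma voom adjusted p = 0.274). Trbv26 stood at 12.94, 13.98 and 18.94 CPM with DMSO and at 17.90, 30.04 and 14.84 CPM with UA. Its fold change rested on UA library b, and it was not called (0.42 ± 0.29, adjusted p = 0.316). That library also had the highest level of Trbv3, Trbv19, Trbv24 and Trbv29, and without it the median log2 fold change of the beta V genes was 0.08. Trbv30 had groups that did not overlap, at 1.57 ± 0.111 and 2.28 ± 0.459 CPM, but missed the threshold (0.51 ± 0.25, limma voom). Trbv4 and Trbv5 were too low to test.

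Usage is the share of each V segment among all V counts of its chain, and so does not move with the level of the whole chain. The share of Trbv1 was 29.88%, 28.77% and 25.80% with DMSO and 23.91%, 20.06% and 25.69% with UA, a mean difference of -4.93 percentage points. The nearest libraries, DMSO c and UA c, were almost equal. The share of Trbv2 was 9.732%, 9.256% and 9.748% with DMSO and 12.68%, 11.60% and 13.09% with UA, a difference of 2.88 points with a clear gap between the groups. The share of Trbv31 went from 6.19% ± 0.479 to 7.89% ± 1.08, and that of Trbv3 from 13.9% ± 1.13 to 15.8% ± 1.45 (SD, n = 3).

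In all, 6 of 14 beta V shares had groups that did not overlap, 5 higher with UA (Trbv2, Trbv3, Trbv5, Trbv30 and Trbv31) and 1 lower (Trbv1). Each had an exact permutation p = 0.1, which is the smallest possible and becomes 0.233 when adjusted over the 14 shares, so none passes 0.05. CPM of the groups did not overlap in 46.8% of all genes tested, a background on CPM and not on shares. Shares of a chain add up to the whole, so they do not move independently of each other. The CPM of Trbv1 was not called (limma voom adjusted p = 0.677). Shares also rest on the same counts as the calls. The remaining shares overlapped: Trbv24 averaged 13.8% with DMSO and 12.9% with UA, Trbv19 12.73% and 12.03%, Trbv29 7.49% and 6.90%, and Trbv26 4.44% and 5.05%. The effective number of beta V segments, the exponential of the Shannon entropy of the shares, was 7.93 ± 0.158 with DMSO and 8.34 ± 0.218 with UA (SD, n = 3). Profiles of the 14 shares were alike in every pair of libraries, with Pearson's r of 0.990 to 0.998 within groups and 0.991 to 0.995 between them, as a description across segments of the same libraries.

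**Figure D3:**
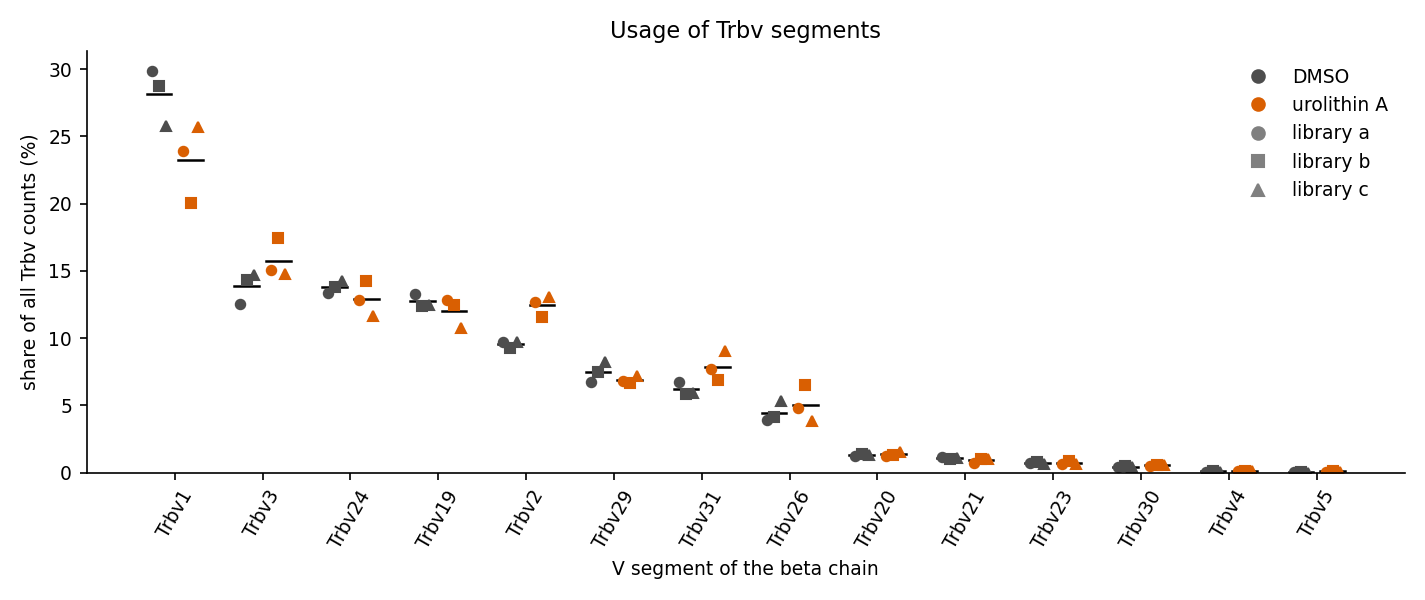
Share of each of the 14 Trbv genes among all Trbv counts (percent), by library (symbols), with the mean of each group (line). Trbv1 has the highest share in every library and is lower in the UA libraries, while Trbv2, Trbv3 and Trbv31 are higher there.

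V segments and constant regions of the beta chain can be set side by side. Summed over the 14 genes, beta V CPM was 331.4, 340.4 and 357.5 with DMSO and 374.0, 463.3 and 382.7 with UA, 1.19 times as high on average. The sum of both constant genes was 883 ± 26.4 CPM with DMSO and 1127 ± 80.3 CPM with UA, 1.28 times as high. The count ratio of Trbv2 to Trbc2 was 0.0549 ± 0.00232 with DMSO and 0.0662 ± 0.00397 with UA (SD, n = 3), and that of Trbv31 to Trbc2 was 0.0354 ± 0.00112 and 0.0417 ± 0.00113. For Trbv1 the ratio was lower with UA, at 0.161 ± 0.00847 and 0.123 ± 0.00233. The groups do not overlap in any of the 3 ratios.

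All 14 J segments of the beta chain were tested, and 13 had a positive log2 fold change, with a median of 0.22. Only Trbj2-4 was called (7.14%, beside 33.7% of all genes tested). It stood at 4.873, 4.174 and 4.827 CPM with DMSO and at 6.662, 6.632 and 6.480 CPM with UA, with a clear gap between groups and a log2 fold change of 0.51 ± 0.15 (SE, limma voom adjusted p = 0.0184). The call was lost without DMSO library b (adjusted p = 0.0986), without UA library a (adjusted p = 0.0580) and without both (adjusted p = 0.190). Trbj1-6 was also higher in every UA library, at 5.04 ± 0.117 and 6.38 ± 0.491 CPM (SD, n = 3), and missed the threshold (adjusted p = 0.0904).

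The 4 most abundant beta J genes were of the second cluster, which lies with Trbd2 just upstream of Trbc2, and the fifth was Trbj1-6 of the first cluster. Trbj2-7 averaged 6.85 CPM with DMSO and 7.36 with UA, Trbj2-3 6.65 and 6.79, Trbj2-1 6.21 and 6.43, and Trbj2-2 5.66 and 6.58, and none of these was called. The lowest was the pseudogene Trbj2-6, at 1.35 and 1.16 CPM. The first cluster, which lies upstream of Trbc1, summed to 24.1 ± 2.30 CPM with DMSO and 29.8 ± 2.32 CPM with UA (SD, n = 3), and the second to 34.0 ± 2.53 and 37.8 ± 3.04 CPM. The count ratio of the first to the second was 0.7323, 0.6966 and 0.6985 with DMSO and 0.7232, 0.9407 and 0.7184 with UA: UA library b stood apart and the other UA libraries lay within or next to the DMSO range. The D segments Trbd1 and Trbd2, 12 and 14 bases long, averaged 0.953 and 1.51 CPM with DMSO and 1.19 and 2.27 CPM with UA and were not called.

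In the alpha chain, 1 of 31 tested V segments rose (3.23%, beside 33.7% of all genes called). Trav14-1 stood at 4.931, 4.313 and 3.872 CPM with DMSO and at 6.038, 8.106 and 7.083 CPM with UA, without overlap, with a log2 fold change of 0.69 ± 0.17 (SE, limma voom adjusted p = 0.00684). It was the most abundant alpha V gene. Its share of alpha V counts was 11.30%, 10.08% and 8.774% with DMSO and 14.72%, 15.20% and 15.41% with UA, a difference of 5.06 percentage points. The exact permutation p was 0.1, the smallest possible, and 0.8 when adjusted over the alpha V shares. The count ratio of Trav14-1 to Trac was 0.0158 ± 0.00229 with DMSO and 0.0265 ± 0.00124 with UA (SD, n = 3). Share and ratio rest on the same counts as the call of Trav14-1 and are not independent of it. Of the 50-base words of Trav14-1, 95.1% occur in no other receptor transcript, and the rest are shared with 7 other members of the Trav14 family.

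Of the other 30 tested alpha V genes none was called, and the median log2 fold change of the 31 was 0.09, which became -0.08 without UA library b. Trav6n-6 averaged 1.97 ± 0.160 CPM with DMSO and 2.58 ± 0.572 with UA, Trav3-3 2.28 ± 0.496 and 1.80 ± 0.517, Trav6-1 2.13 ± 0.601 and 1.64 ± 0.447, and Trav7-1 1.52 ± 0.298 and 1.59 ± 0.324 (SD, n = 3). These 4 follow Trav14-1 in abundance and the ranges of the groups overlap in each. Standard errors were wide at this depth, with a median of 0.32 for alpha V genes and 0.13 for beta V genes. Many alpha V segments were duplicated in the mouse: only 6 of 48 had no 50-base word in common with another receptor gene, and in 14 under 50% of the words were unique.

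Shares of 5 alpha V genes were lower in every UA library than in every DMSO library: Trav16d-dv11, from 3.70% ± 0.817 to 2.49% ± 0.178, Trav15-1-dv6-1, from 3.37% ± 0.315 to 2.65% ± 0.539, and Trav9-4, Trav6d-3 and Trav16, each under 1.2% (SD, n = 3). With Trav14-1 that makes 6 of 48, and the adjusted exact permutation p was 0.8 for each. Over all genes tested, CPM of the groups did not overlap in 46.8%. Trav6d-3 has 2.24% unique words, shared with Trav6-3, and Trav16 shares words with Trav16d-dv11, so a read may have been counted for another copy. The effective number of alpha V segments was 35.46, 36.32 and 36.18 with DMSO and 33.03, 33.60 and 32.93 with UA. All UA values lay below all DMSO values. Share profiles were less alike between libraries than for beta, with r of 0.743 to 0.892 within groups and 0.711 to 0.839 between groups over 48 segments.

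None of the 22 tested alpha J segments was called, and 9 had a positive log2 fold change, with a median of -0.05. The most abundant were Traj31 (1.18 ± 0.126 and 1.09 ± 0.220 CPM), Traj15 (1.11 ± 0.173 and 1.01 ± 0.365), Traj12 (1.13 ± 0.172 and 0.972 ± 0.464), Traj11 (0.920 ± 0.134 and 1.09 ± 0.462) and Traj17 (0.961 ± 0.377 and 0.992 ± 0.313), with the DMSO value first (SD, n = 3). The groups overlapped in all 5. The highest fold change was that of Traj23, at 0.86 ± 0.39 on the log2 scale (SE, limma voom adjusted p = 0.103).

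Alpha J segments are used in an order during development, from the end far from Trac toward Trac, since the locus can rearrange again. The 29 Traj genes next to Trac, from Traj31 on, summed to 18.2 ± 0.826 CPM with DMSO and 18.2 ± 2.96 CPM with UA, and the 29 farther away to 10.49 ± 1.32 and 11.7 ± 0.879 CPM (SD, n = 3). In both groups the nearer genes held more counts. Annotated pseudogenes had counts too, such as Traj14 at 0.386 CPM with DMSO and 0.460 with UA. The counts do not tell joined segments from others that are transcribed, so they do not measure the order of use. The cause of the slope was not tested. Spearman's rho of start position with mean CPM was 0.46 over the 58 Traj genes and -0.17 over the 48 Trav genes, given as a description over segments of the same libraries.

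**Figure D4:**
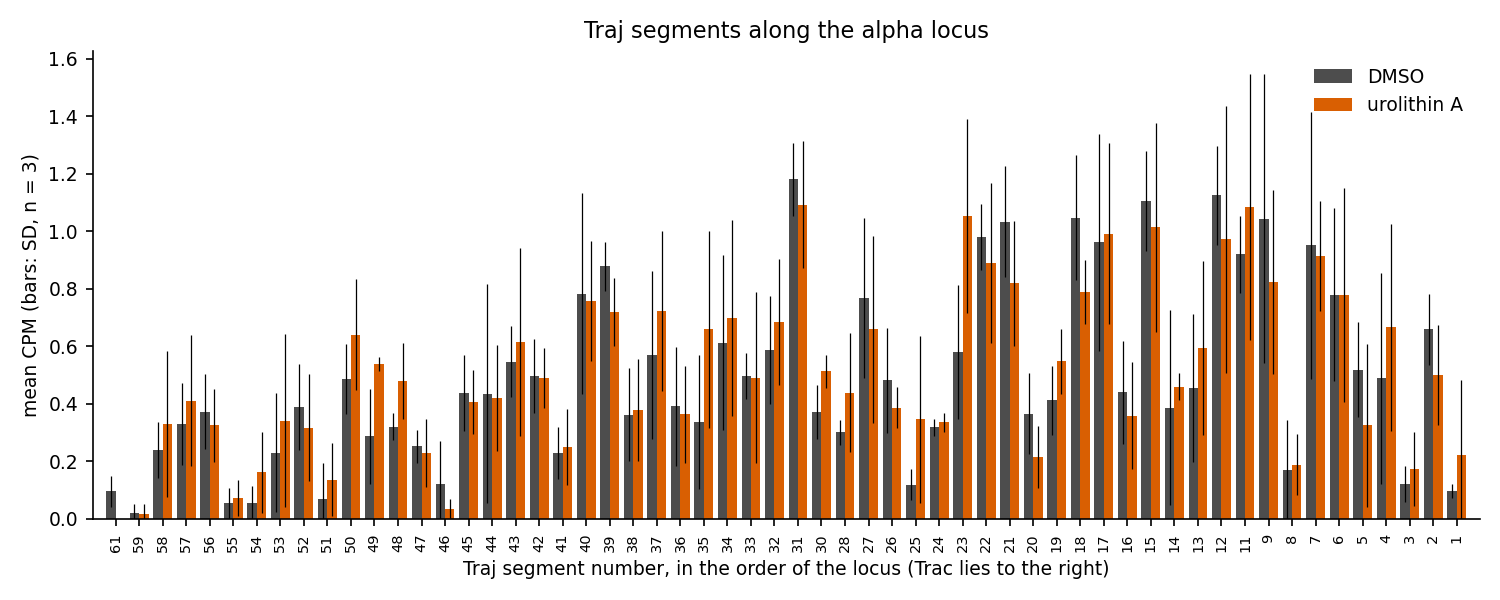
Mean CPM of the 58 Traj genes (bars; lines give the SD, n = 3) in the order of the locus, with Trac to the right, for DMSO and UA. Levels run from near 0 to 1.18 CPM, are higher toward Trac in both groups, and differ between groups by less than the spread of the libraries for most genes.

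Some segments belong to the nearly fixed receptors of certain T cells, although 1 segment alone does not identify those cells. Traj18 is the J segment of invariant natural killer T cells, and it averaged 1.05 ± 0.217 CPM with DMSO and 0.788 ± 0.112 with UA (SD, n = 3), with a log2 fold change of -0.38 ± 0.32 and a limma voom adjusted p of 0.397. Traj33 with Trav1 makes the alpha chain of mucosal-associated invariant T cells. Traj33 was too low to test, at 0.498 and 0.491 CPM, and Trav1 was at 0.472 and 0.700 CPM (adjusted p = 0.323). Trav11 and Trav11d, the partners of Traj18, were not among the 48 alpha V genes listed.

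The constant genes of the gamma chain did not move together. Trgc2 was at 5.221, 5.008 and 4.403 CPM with DMSO and at 2.394, 2.551 and 2.939 CPM with UA. All UA libraries were below all DMSO libraries, with a log2 fold change of -0.90 ± 0.19 (SE, limma voom adjusted p = 0.00199), and it was the only member called lower. Trgc4 averaged 4.19 ± 0.461 and 4.09 ± 0.562 CPM (adjusted p = 0.817) and Trgc1 1.69 ± 0.190 and 1.51 ± 0.416 CPM (adjusted p = 0.708), both with overlapping groups.

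The count ratio of Trgc2 to Trgc4 was 1.343, 1.263 and 0.9326 with DMSO and 0.6866, 0.6081 and 0.6393 with UA, without overlap (exact permutation p = 0.1, the smallest possible). Of the 50-base words of Trgc2, 74.6% are unique to it, and the rest are shared with the constant genes of clusters C1 and C3, while all words of Trgc4 are unique. Trgv2, the V gene beside Trgc2, averaged 1.47 ± 0.479 CPM with DMSO and 1.36 ± 0.205 with UA and was not called (adjusted p = 0.918). Trgv1, Trgv4 and Trgj4 were too low to test.

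The delta chain, whose genes lie inside the alpha locus, was not called in any gene. Trdc, its constant region, stood at 12.71, 14.33 and 15.70 CPM with DMSO and at 12.18, 15.25 and 14.84 CPM with UA, overlapping ranges with a log2 fold change of -0.03 ± 0.13 (SE, limma voom adjusted p = 0.881, 95% interval -0.30 to 0.24). Trdv1 averaged 0.899 and 1.123 CPM (adjusted p = 0.657) and Trdj1 0.724 and 0.573 CPM (adjusted p = 0.512). Trdv2-2 and Trdj2 were too low to test, the latter with 3 counts in all. Of the 5 fixed gamma delta and innate-like markers in the table, 2 were tested and neither was called, and the summed level of the 5 was 5.73 to 7.51 CPM with DMSO and 6.18 to 6.56 with UA.

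The receptor is exported to the surface with the CD3 chains and the zeta chain. Of these 4 genes, only Cd247, which encodes zeta, rose: it was at 253.9, 245.7 and 235.2 CPM with DMSO and at 307.7, 294.0 and 328.8 CPM with UA, without overlap (log2 fold change 0.34 ± 0.07, limma voom adjusted p = 0.00181). The call was lost without DMSO library b and UA library a (adjusted p = 0.0596). Cd3d (0.05), Cd3e (0.10) and Cd3g (0.15) had smaller log2 fold changes and were not called.

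Of the 3 coreceptor genes, Cd4 rose from 250.1 ± 9.83 to 299 ± 12.5 CPM (SD, n = 3; log2 fold change 0.26 ± 0.07, limma voom adjusted p = 0.00923), a call held in 10 of 14 alternatives. It was lost under total count scaling (adjusted p = 0.0525), when DMSO library b (0.0684) or c (0.0602) was left out, and when DMSO library b and UA library a were left out together (0.0993). Cd8a (0.16, adjusted p = 0.0822) and Cd8b1 (0.01, adjusted p = 0.960) were not called, although Cd8a passed under the stricter count filter (adjusted p = 0.0473). The called share of the 3 coreceptor genes was 33.3%, beside 33.7% of all genes tested. Among 6 genes of docking and proximal signalling, Trat1, an adaptor that associates with the receptor complex, rose most: 4.409, 6.052 and 4.933 CPM with DMSO against 14.78, 14.96 and 17.86 CPM with UA (log2 fold change 1.63 ± 0.15, adjusted p = 1.7e-06). The UA values lie far above the DMSO values. Of the 6 genes of docking and proximal signalling, 1 was called higher and 2 lower (50.0%, beside 33.7% of all genes tested).

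Lck, the kinase that starts receptor signalling, fell by 0.25 on the log2 scale (adjusted p = 0.0220), and the adaptor gene Lat fell by 0.22 (adjusted p = 0.0474). The call of Lck held in 9 of 14 alternatives and was lost under total count scaling (adjusted p = 0.451), without DMSO library a (0.0867), DMSO library b (0.0544) or UA library a (0.0581), and without DMSO library b and UA library a together (0.157). The call of Lat held in only 4 of 14, and was lost with the replicate letter as a block too (adjusted p = 0.0550), with adjusted p of up to 0.551. Zap70, Themis and Ubash3a were not called, nor was Dntt, which encodes the enzyme that adds bases at the junctions. Without UA library b, Themis was called lower, with a log2 fold change of -0.20 in place of -0.06 (adjusted p = 0.0218). Ptcra, Rag1 and Rag2 had no row in the deposited counts.

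Markers of other cells are given as RNA levels, which do not measure the share of each cell type in the cultures. Of 6 B cell genes, 3 rose (Cd79b, Ighm and Ms4a1) and none was called lower (50.0%, beside 33.7% of all genes called). The summed level of the 6 was 161.7 to 178.8 CPM with DMSO and 205.9 to 249 CPM with UA. Ighm made up most of that sum, at 149.2 to 166.3 and 189.4 to 230.8 CPM, and none of the 6 was at 0. Their part in the changes of Trbc1, Trbc2 and the V segments was not tested. The 4 myeloid genes summed to 0.696 to 1.01 CPM with DMSO and 0.677 to 0.964 with UA, and the 2 NK genes to 1.25 to 1.75 and 1.30 to 1.56 CPM.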

How the data were processed

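RNA of 6 libraries (3 DMSO, 3 UA) was prepared with a stranded TruSeq kit, per the labels' protocols. The submitters' processing notes name bcl2fastq 2.20.0.422, FastQC, STAR 2.5.2a, DESeq2 and the build mm10. For the annotation, the counting's strand setting and the build of the table's coordinates, no source used here gives a name. The authors deposited gene counts as whole numbers written with a decimal comma; for this reason they were recorded as another unit, and a log-scale model stood in for count models. The 2 deposited files are identical and 1 was read. Its 3 columns that match no labelled sample were left out.

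Counts were scaled by the trimmed mean of M values, filtered (3 libraries with 10 or more counts at the median library size, and a total of 15) and tested with limma 3.58.1 voom and robust empirical Bayes in R 4.3.3, group as the only term, with Benjamini-Hochberg adjustment over all genes tested and a threshold of 0.05. The fit was tested on simulated data. CPM is the count over the scaled library total, times 1000000. Single ratios and shares were compared by exact two-sided permutation over 20 regroupings. No library was a duplicate of another within counting error. Replicate letters were not used as pairs.

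Members and gene lists were chosen with earlier results of these data known. Named genes are every constant gene, the 5 most abundant of each alpha and beta V and J class, called genes without overlap, tested gamma and delta genes, invariant T cell segments and the receptor complex list; Traj23, Trbv26, Trbv29, Trbv30, Trbd1, Trbd2 and the segments named for their shares were added after their values were seen. Sequences are GENCODE M21 transcripts matched by gene ID for all 151 members.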

Additional observations from a re-analysis of the deposited data

How the results depend on the processing

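Under 14 alternatives, including each library left out, no result changed direction past its threshold. Trbc1, Trbc2, Trbv2, Trbv31, Trav14-1 and Trgc2 were called in all 14: the log2 fold change ranged from 0.30 to 0.44 for both beta constant genes and from -0.98 to -0.70 for Trgc2, and that of Trac, never called, from -0.14 to 0.03. Leaving out 1 library gave 5 to 9 receptor genes higher and 1 lower. With no filter on low counts 3 were lower, since Trav16 (adjusted p = 0.0387) and Trav6d-3 (adjusted p = 0.0203) then entered. Total count scaling moved the median of all genes from 0.01 to 0.09 on the log2 scale and the share of calls that were higher from 52.6% to 70.6%, and added Trbv26 (adjusted p = 0.0196). With the replicate block 7 were higher and 1 lower, and the call of Lat was lost (adjusted p = 0.0550). Same-letter libraries had deviation correlations of 0.0749, -0.144 and -0.0827, and libraries of unlike letters -0.265 to 0.294. These values show no pairing by letter, but with 3 libraries per group they cannot exclude it. Without DMSO library b and UA library a, a choice made after seeing the data, 6 were higher, 1 lower and 2666 genes were called in all, against 4871. Without UA library c, Trbd2 (adjusted p = 0.0229) and Trbj1-1 (adjusted p = 0.0391) were called too. The median of the alpha V genes was -0.08 without UA library b, and under the stricter filter Trav14-1 was the alpha V gene left to test (0.70). For beta V genes it was 0.37 without UA library a. The causes were not tested. Count models were not run, because values written with decimal commas were recorded as another unit. All values are whole numbers, so this was a choice of procedure and not a limit of the data. Depth limits the alpha segments, of which 17 V and 36 J genes were too low to test.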
